A study of Mus musculus with 12 samples.

Results

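The miRNAs described here are the entries numbered miR-297, miR-466, miR-467 and miR-669 of a mouse miRNA array, the numbers that fill a large cluster inside an intron of the gene Sfmbt2. They were chosen by name alone, with star entries (an older mark for the strand of a hairpin thought to be the scarcer one) left out. This gave 48 of the 710 entries of the array, of which 4 were miR-297, 20 miR-466, 8 miR-467 and 16 miR-669. Blood of 6 Tff2-KO and 6 WT mice, with 3 animals of each sex per genotype, had been profiled on 1 array per mouse. All mice were of the 129/SV strain. Tff2-KO mice lack the trefoil peptide gene Tff2 and had been generated earlier, while WT mice came from a commercial breeder, so that genotype and origin cannot be told apart. Ages were not given in the sources used here. The RNA came from the pellet of centrifuged blood, so the values describe mixed blood cells, and neither Tff2 nor Sfmbt2 mRNA was measured.

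A miRNA guides the silencing complex to mRNAs that pair with its seed, the bases 2 to 8 from its 5′ end, and thereby lowers their translation or stability. Sfmbt2 encodes a polycomb group protein, is imprinted with expression from the paternal copy in early embryo and placenta, and in mouse and rat carries an expanded array of related hairpins in one of its introns. The cluster is best known from placenta and embryonic stem cells, and many of its members are near copies of each other, so that one probe may bind several of them. In a RefSeq annotation of GRCm38.p6, used here for names and for order only, 72 hairpin genes of the 4 numbers lay inside Sfmbt2 on chromosome 2. Of the 48 members, 35 had their hairpin genes only there, 4 had copies there and elsewhere (miR-297a, miR-466f, miR-466f-3p and miR-466f-5p), 7 had them only elsewhere, and 2 (miR-466a-3p and miR-466a-5p) had no gene of their name in the table. The largest copy numbers inside Sfmbt2 were 12 hairpin genes for miR-669a, 10 for miR-467a and 8 for miR-466b.

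Of the 48 members 7 were matched to a mature sequence in the RefSeq table used here, and these are the 7 that lie outside Sfmbt2. They are shown because they carry repeats of 2 kinds and because 2 of them, miR-466i and miR-467f, are among the 3 brightest members. The sequences (GRCm38.p6) are written 5′ to 3′ with the seed in capitals. The array names no arm for miR-466i, and the sequence shown is the only entry of that number and letter, miR-466i-3p.
miR-466i (chr13:17747552-17747573, plus strand): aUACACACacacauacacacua
miR-467f (chr11:69635419-69635439, minus strand): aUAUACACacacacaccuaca
miR-467g (chr5:34732872-34732892, minus strand): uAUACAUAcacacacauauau
miR-466j (chr10:60960802-60960824, plus strand): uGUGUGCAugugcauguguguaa
miR-466k (chr3:85467396-85467418, plus strand): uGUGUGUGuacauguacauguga
miR-467h (chr9:115381898-115381919, plus strand): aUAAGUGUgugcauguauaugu
miR-669n (chr3:115979905-115979924, plus strand): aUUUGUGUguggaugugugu

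The 7 seeds differed from one another. They fell into 2 sequence types that cut across the numbers, and whether this holds for the other members was not analysed here. The motif ACACAC, searched on the given strand only, occurred in miR-466i, miR-467f and miR-467g, and in 11 of the 1674 distinct mature sequences of the table (0.657%). The motif UGUGUG occurred in miR-466j, miR-466k, miR-467h and miR-669n, and in 28 of the 1674 (1.67%). A and C made up 86.4% of miR-466i, 85.7% of miR-467f and 71.4% of miR-467g, whereas G and U made up 73.9% of miR-466j, 69.6% of miR-466k, 68.2% of miR-467h and 90% of miR-669n. In the best alignment without gaps, miR-467f matched miR-466i at 16 of 19 bases and miR-467g at 17 of 20, and miR-466k matched miR-467h at 17 of 21. miR-466i and miR-466k, which carry the same number, matched at 9 of 22 bases.

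The array reads each entry at 7 spots, and the deposited intensity is their median after subtraction of the background. Mean intensity per array was 543 to 1151 (median 720) in Tff2-KO mice and 375 to 999.98 (median 493) in WT mice. An entry was taken as measured on an array where its intensity exceeded the size of the lowest, negative value of that array. Of the 48 members 36 were measured on all 12 arrays, against 42.3% of all 710 entries. Members measured on an array numbered 42 to 47 (median 45.5) in Tff2-KO mice and 40 to 47 (median 46) in WT mice. Together they made up 2.16% to 5.01% of the summed intensity in Tff2-KO mice and 2.13% to 3.74% in WT mice. The 4 markers of red cells (miR-451, miR-486, miR-144 and miR-16), miR-223 of myeloid cells and miR-142-5p of blood cells were measured on all 12 arrays. Of the 3 lymphocyte markers, miR-150 was measured on all 12 arrays, miR-181a on 6 and 5 and miR-155 on 2 and 3 of the 6 Tff2-KO and 6 WT arrays. The other strand of the miR-142 hairpin, miR-142-3p, was measured on 1 Tff2-KO array and on 0 WT arrays. Platelet miR-126-3p was measured on all 12 arrays and miR-126-5p on none. Markers of other tissues were measured too, so being measured does not single out blood cell miRNAs. Brain miR-124, muscle miR-133a and epithelial miR-200a and miR-200c were measured on all 12 arrays, but brain miR-9 on none. Muscle miR-133b was measured on 6 and 4, miR-1 on 1 and 4 and miR-206 on 1 and 1 of the Tff2-KO and WT arrays. For epithelial miR-200b it was 6 and 5, and for miR-141 4 and 6. The embryonic stem cell miRNA miR-294 was measured on none of the 12 arrays, miR-291a-3p on 3 and 4, and miR-295 on 4 and 6 of the 6 Tff2-KO and 6 WT arrays. Liver miR-122 spanned 122 to 4793 in Tff2-KO mice and 55.3 to 6114 in WT mice. Its part in the values below was not tested.

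The genotypes were compared with limma on log2 intensities after quantile normalization over all 710 entries. At an adjusted p under 0.05, 0 of the 48 members and 0 of the 710 entries (0%) differed, with 0.335 as the smallest adjusted p of a member. At an unadjusted p under 0.05 there were 7 members (14.6%), against 9.44% of all entries. Of these, 3 were higher in Tff2-KO mice (miR-669c, miR-467a and miR-466e-5p; background 3.8%) and 4 lower (miR-669j, miR-669h-3p, miR-669k and miR-297b-3p; background 5.63%). Leaving out 1 mouse at a time gave 0 to 7 higher and 1 to 6 lower members. The number higher was 0 without Tff2-KO replicate 2, without Tff2-KO replicate 4 or without WT replicate 2, and 7 without WT replicate 4. Over all 710 entries the number higher was then 19, 15, 18 and 44, against 27 with all mice. It was 1 of the 48 members without Tff2-KO replicate 3, Tff2-KO replicate 5 or WT replicate 1 (18, 27 and 24 over all entries). The number lower was 1 without Tff2-KO replicate 3, without Tff2-KO replicate 4 or without WT replicate 2. It was then 31, 27 and 30 over all entries, against 40 with all mice. Without WT replicate 1, 3 or 5 it was 2 of the 48 members (29, 29 and 35 over all entries). Without WT replicate 6 it was 6 (50 over all entries). In these bulk samples fewer cells of a type and less miRNA per cell cannot be told apart. In no member were all mice of one genotype above all mice of the other, as they were in 0.423% of all entries with Tff2-KO higher and in 0.704% with WT higher.

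Most members had a fold change above 0 without passing the test. The fold change was above 0 in 33 of 48 members (68.8%), against 50.4% of all entries, and it was below 0 in 15 members, against 49.6% of all entries. The median log2 fold change was 0.14, against 0.01 over all entries. miR-466 had 17 of 20 members above 0 with a median of 0.24, and its median lay between 0.18 and 0.42 under each other scaling of the arrays. miR-669 had 8 members above and 8 below 0 (9 and 7 without normalization or with median or 75th percentile scaling), with a median of 0.06 and a range from -0.91 to 0.66. The interquartile range of the fold changes was 0.95 in miR-669, 0.26 in miR-466 and 0.65 over all entries. miR-467 had 5 of 8 members above 0 with a median of 0.05, which was -0.01 without normalization and -0.04 with 75th percentile scaling. miR-297 had 3 of 4 above 0 with a median of 0.23, which rests on few members and was -0.16 when only the brighter entries were kept. No fold is given for miR-467e, which was measured on 2 of 6 Tff2-KO arrays, although it enters the counts.

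**Figure D1:**
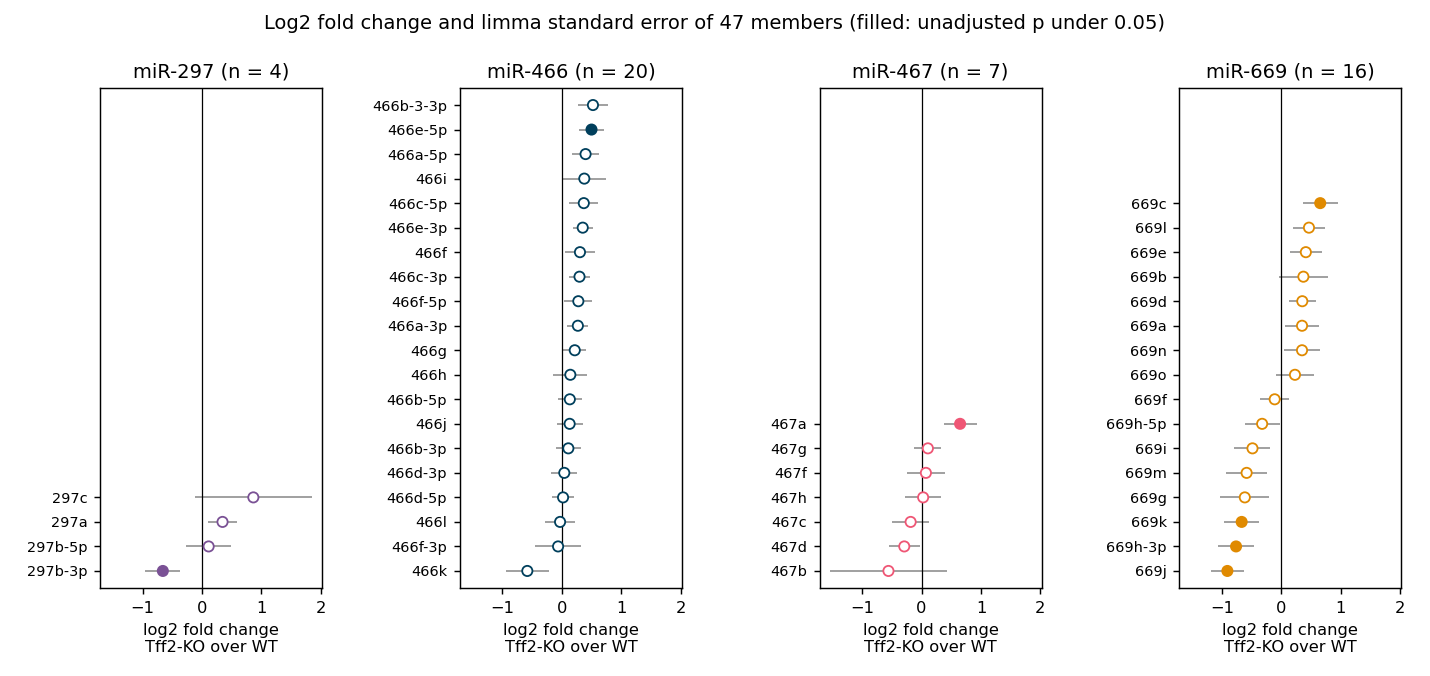
Log2 fold change, Tff2-KO against WT (horizontal axis), for 47 members, in 1 panel per number. Points are limma estimates, bars are standard errors, and filled points have an unadjusted p under 0.05; miR-466 points cluster above 0, while miR-669 points run from -0.91 to 0.66 with 8 on either side.

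The median member of each number was also followed from mouse to mouse. For miR-466 it was 171 to 269 (median 213) in Tff2-KO mice and 160 to 200 (median 176) in WT mice, so that 171 to 200, the lower part of the Tff2-KO range, was shared. For miR-669 it was 190 to 256 (median 212) in Tff2-KO mice and 156 to 257 (median 194) in WT mice. The Tff2-KO range lay inside the WT range. The median member of miR-467 was at lower values in Tff2-KO mice, 83.7 to 128 (median 112), than in WT mice, 96.5 to 154 (median 133), although more of its members had a fold change above 0. For miR-297 the values were 58.1 to 110 (median 75.4) in Tff2-KO mice and 55.7 to 111 (median 91.9) in WT mice, with nearly the same range in both genotypes.

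miR-669 held both the largest lower and one of the largest higher values. miR-669j had a normalized intensity of 152 to 304 (median 222) in Tff2-KO mice and of 272 to 769 (median 407) in WT mice. Of the Tff2-KO mice, 5 of 6 lay below every WT mouse. Its log2 fold change was -0.91 (standard error 0.28, n = 6 mice per genotype, limma adjusted p = 0.335). The AUC, the share of pairs of 1 Tff2-KO and 1 WT mouse in which the WT mouse is higher, was 0.944. Before normalization the ranges of miR-669j only touched, with 172 to 304 in Tff2-KO mice and 304 to 388 in WT mice. miR-669h-3p, the 3′ arm of its hairpin, was at 194 to 373 (median 244) in Tff2-KO mice and at 280 to 857 (median 458) in WT mice. Here 4 of 6 Tff2-KO mice were below all WT mice. Its log2 fold change was -0.76 (standard error 0.30, limma adjusted p = 0.482, AUC 0.889), and that of the 5′ arm, miR-669h-5p, was -0.32 (limma adjusted p = 0.714). miR-669k was at 202 to 391.7 (median 285) in Tff2-KO mice and at 235 to 834 (median 462) in WT mice, and 2 WT mice lay inside the Tff2-KO range. The fold change was -0.67 on the log2 scale (standard error 0.29, limma adjusted p = 0.507, AUC 0.861).

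miR-669c went the other way. It was at 409 to 732 (median 515) in Tff2-KO mice and at 152 to 537 (median 359) in WT mice, and only the 2 brightest WT mice reached the Tff2-KO range. The log2 fold change was 0.66 (standard error 0.30, limma adjusted p = 0.507, AUC 0.167), and without WT replicate 2, the dimmest mouse, it was 0.44. miR-669c and miR-669j are listed with miR-297b-3p among the entries the study selected on these same mice, so that their values here are no independent evidence. The remaining 7 members with a positive fold change (miR-669a, b, d, e, l, n and o) had log2 values from 0.23 to 0.47. miR-669a, which is known from mouse heart progenitors where it holds back the muscle factor MyoD, was among them at 0.35 (limma adjusted p = 0.656). Negative values in miR-669f, g, h-5p, i and m ran from -0.61 to -0.11. None of these members had an unadjusted p under 0.05.

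**Figure D2:**
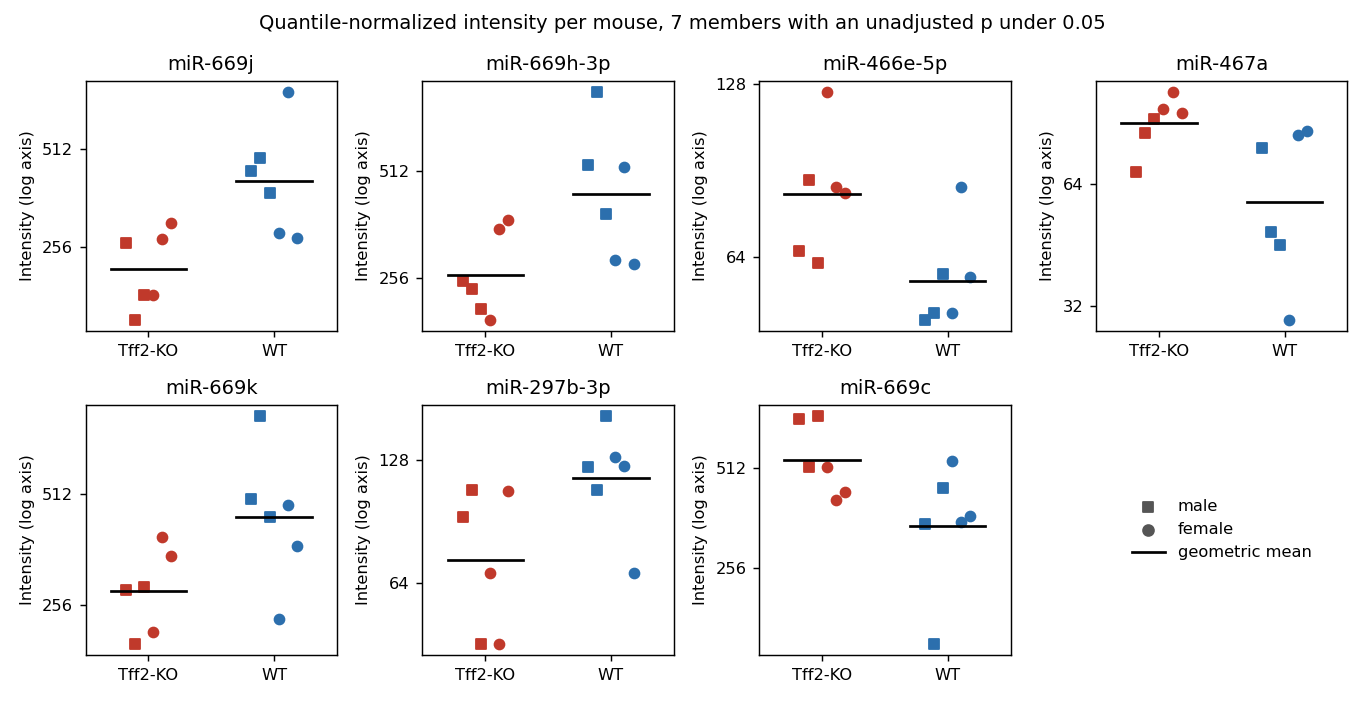
Quantile-normalized intensity of the 7 members with an unadjusted p under 0.05, on a log axis, with Tff2-KO mice left and WT mice right. Each point is 1 mouse (squares male, circles female) and the line is the geometric mean; the genotypes overlap in every panel, least in miR-669j.

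After quantile normalization, the 8 higher miR-669 entries and 4 of the 8 lower ones also formed 2 blocks from mouse to mouse. For this the deviation of each mouse from the mean of its own genotype was correlated between entries over the 12 arrays, which removes the genotype difference. The blocks were formed after the values had been seen and the entries share arrays and related sequences, so the correlations are a description. Among the 8 higher entries Pearson's r lay between 0.39 and 0.89 (median 0.78, 28 pairs). Between miR-669h-3p, i, j and k it was 0.67 to 0.88 (median 0.85, 6 pairs). Each of these 4 followed an entry outside the members more closely than it followed the other 3. For miR-669i r was 0.97 with miR-217, and for miR-669k 0.95 with miR-1906. For miR-669h-3p it was 0.92 with miR-719, and for miR-669j 0.89 with let-7i*. Between these 4 and the 8 higher entries the median was -0.71 (32 pairs, from -0.93 to -0.07). Among all 8 lower entries r ran from -0.31 to 0.88 (median 0.47, 28 pairs). Between the 8 higher and the 8 lower ones it ran from -0.93 to 0.29 (median -0.60, 64 pairs). miR-669f and miR-669h-5p had r of 0.33 to 0.68 with the 4 lower entries, and miR-669g and miR-669m stayed apart from both blocks. Over all pairs of miR-669 the quartiles were -0.61 and 0.64. For comparison, the median was 0.21 between miR-466 members, 0.08 between any 2 members (1128 pairs) and -0.01 between any 2 entries of the array.

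The opposition of the blocks depended on the normalization. Without normalization the median correlation between miR-669h-3p, i, j and k and the 8 higher entries was -0.01 in place of -0.71. The values were -0.55 after median scaling, -0.64 after 75th percentile scaling, -0.68 after cyclic loess and -0.72 in the authors' value table. Within the 8 higher entries the median was 0.90 without normalization, and within the 4 lower ones 0.45. The fold changes kept their signs under these scalings for miR-669c, h-3p, i, j and k, but their sizes moved. Without normalization they were 0.83 for miR-669c, -0.68 for miR-669j, -0.46 for miR-669h-3p, -0.37 for miR-669k and -0.21 for miR-669i. The median of all entries was then -0.08. With median scaling they were 0.98 for miR-669c, -0.53 for miR-669j, -0.32 for miR-669h-3p, -0.23 for miR-669k and -0.06 for miR-669i, with a median of all entries of 0.06.

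**Figure D3:**
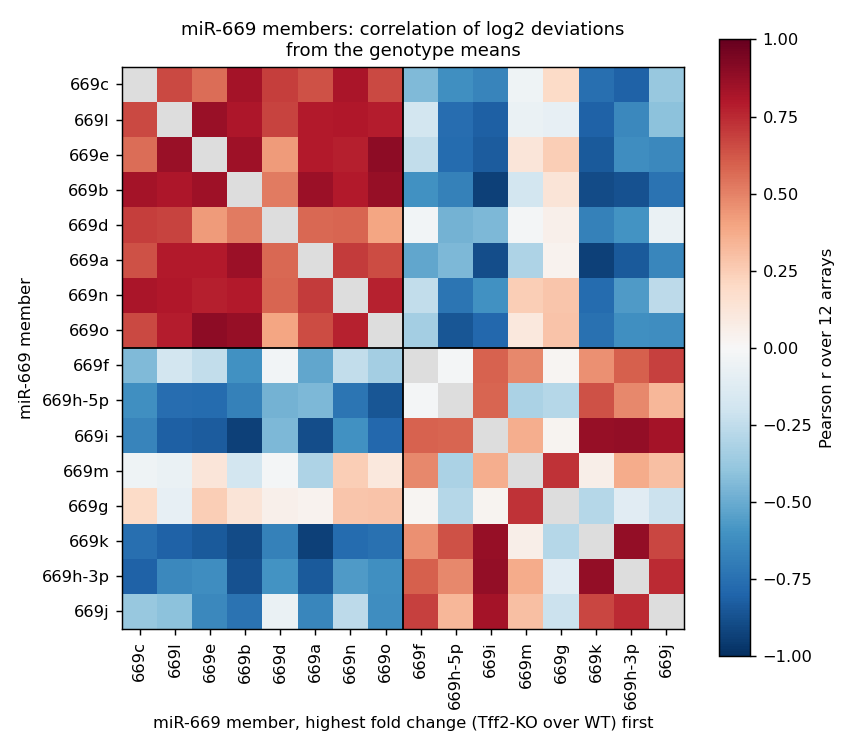
Pearson's r between the 16 miR-669 entries over 12 arrays, after the mean of each genotype was subtracted from the log2 values. Entries run from the highest fold change (top, left) to the lowest, and black lines divide positive from negative fold changes; the 8 higher entries are positively correlated and miR-669h-3p, i, j and k are negatively correlated with them.

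The brightness of an array, taken as its mean raw intensity, moved with entries of both blocks, in opposite directions. The normalized log2 intensity of each of the 48 members was set against the log2 mean raw intensity of the 12 arrays, with permutation tests adjusted over these 48 relations. At an adjusted permutation p under 0.05, Pearson's r passed in 8 members, 5 with a negative and 3 with a positive r. The 5 were miR-669i, k, h-3p and j of the lower block and miR-467d, and the 3 were miR-669a, b and e of the higher block. Over all 710 entries r ran from -0.94 to 0.91 (median -0.06), against -0.90 to 0.91 (median 0.15) over the members. Entries outside the members thus reached a more negative r than any member. They were not tested, so the 8 members cannot be set against a share of all entries. The relation can therefore not be called particular to these members.

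The strongest relations were of miR-669a and miR-669i. For miR-669a Pearson's r was 0.91 (permutation p adjusted to 0.00072) and Spearman's rho 0.91 (adjusted permutation p = 0.00264). For miR-669i r was -0.90 (permutation p adjusted to 0.00072) and rho -0.95 (adjusted permutation p = 0.00048, from the smallest p that the permutations can give). Neither rested on few arrays. Without the 2 arrays farthest from the median brightness (Tff2-KO replicate 2 and WT replicate 4) r was 0.88 for miR-669a and -0.89 for miR-669i. Within Tff2-KO mice r was 0.90 and -0.77, and within WT mice 0.91 and -0.95. miR-669k had an r of -0.84 and a rho of -0.86 (adjusted permutation p = 0.00708 and 0.00928), with an r of -0.76 within Tff2-KO mice and -0.89 within WT mice. miR-669j had an r of -0.79 and a rho of -0.81 (adjusted permutation p = 0.0150 and 0.0179), with -0.94 within Tff2-KO mice and -0.80 within WT mice. miR-669h-3p had an r of -0.81 and a rho of -0.81 (adjusted permutation p = 0.0143 and 0.0179), with -0.57 within Tff2-KO mice and -0.93 within WT mice. In these 3 entries too, brighter arrays went with lower values in both genotypes, and without the 2 farthest arrays r lay between -0.87 and -0.76. miR-669b had an r of 0.83 and a rho of 0.85 (adjusted permutation p = 0.0048 and 0.00936) and an r of 0.76 without the 2 arrays. miR-669e passed with r only, at 0.75 against a rho of 0.73 (adjusted permutation p = 0.0368 and 0.0508), and its r was 0.53 without the 2 arrays. miR-467d had an r of -0.76 and a rho of -0.79 (adjusted permutation p = 0.0330 and 0.0214) and an r of -0.71 without them. miR-669c did not pass, with an r of 0.57 (permutation p adjusted to 0.126).

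The normalization affected the blocks unequally. Without normalization r was 0.92 for miR-669a, 0.77 for miR-669b and 0.73 for miR-669e. For the lower block it was -0.51 for miR-669i, -0.28 for miR-669k, -0.40 for miR-669j and -0.20 for miR-669h-3p. Values without normalization still contain the intensity of the array itself. After median scaling r was 0.92, 0.84 and 0.77 for miR-669a, b and e. It was then -0.66, -0.56, -0.60 and -0.51 for miR-669i, k, j and h-3p. By mean raw intensity the arrays of the genotypes were not equally bright, as 4 of 6 WT arrays were dimmer than every Tff2-KO array. The median raw intensity of an array did not show this. It was 72 to 128 (median 86) in Tff2-KO mice and 80 to 120 (median 104) in WT mice. The part of array brightness in the genotype differences was not tested.

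**Figure D4:**
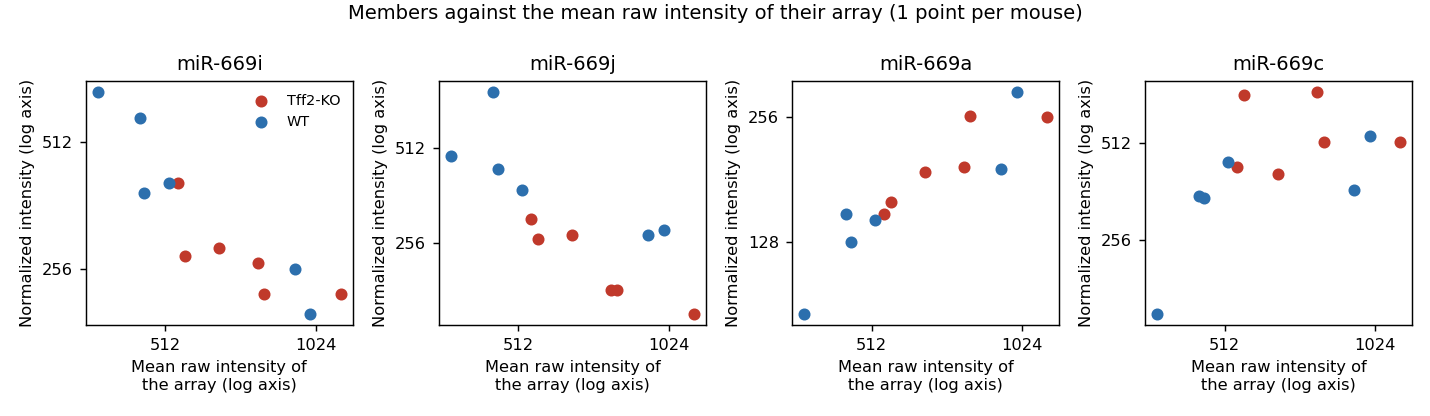
Normalized intensity of 4 miR-669 members against the mean raw intensity of their array, both on log axes, with 1 point per mouse (red Tff2-KO, blue WT). miR-669i and miR-669j are lower (r of -0.90 and -0.79) and miR-669a is higher (r of 0.91) on brighter arrays in both genotypes. By this mean 4 WT arrays are the dimmest.

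In miR-466, both arms of the miR-466e hairpin had higher mean values in Tff2-KO mice without passing the adjusted test. miR-466e-5p was at 62.3 to 124 (median 83.7) in Tff2-KO mice and at 49.7 to 84.5 (median 55.0) in WT mice, and the overlap came from 1 WT mouse. The log2 fold change was 0.50 (standard error 0.21, limma adjusted p = 0.507, AUC 0.0833). miR-466e-3p was at 150 to 262 (median 194) in Tff2-KO mice and at 128 to 169 (median 164) in WT mice, which gave a fold change of 0.35 on the log2 scale (standard error 0.17, limma adjusted p = 0.507). The WT mice filled the lower part of the Tff2-KO range and reached below it. miR-466b-3-3p, the 3′ arm of one of the copies of miR-466b, was at 128 to 288 (median 221) in Tff2-KO mice and at 79.3 to 192 (median 163) in WT mice. The WT mice reached well below the Tff2-KO range and overlapped its lower part. The log2 fold change was 0.52 (standard error 0.26, limma adjusted p = 0.516). Entries named for the 5′ arm were above 0 in 6 of 6 cases (median 0.32), those for the 3′ arm in 6 of 7 (median 0.27) and those with no arm in 5 of 7 (median 0.14). The 3 entries below 0 were miR-466k at -0.58, miR-466f-3p at -0.06 and miR-466l at -0.03. miR-466l, which has been reported to stabilise Il10 mRNA in mouse macrophages, was at 108 to 189 (median 135) in Tff2-KO mice and at 98.3 to 277 (median 122) in WT mice, and the WT range held the Tff2-KO range.

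The 3 brightest members did not pass the test. miR-466f-3p was at 1157 to 5203 (median 1801) in Tff2-KO mice and at 1559 to 3717 (median 2084) in WT mice. Its log2 fold change was -0.06 (standard error 0.38, limma adjusted p = 0.954). miR-467f was at 745 to 2436 (median 1063) in Tff2-KO mice and at 857 to 1616 (median 1249) in WT mice, with a log2 fold change of 0.07 (standard error 0.32, limma adjusted p = 0.946). miR-466i was at 673 to 2169 (median 819) in Tff2-KO mice and at 505 to 1427 (median 822) in WT mice, with a log2 fold change of 0.38 (standard error 0.36, limma adjusted p = 0.724). In each of the 3 the genotypes overlapped widely, and for miR-466f-3p and miR-467f the WT range lay inside the Tff2-KO range. The fold changes of all 3 were higher without normalization and under median and 75th percentile scaling, but not under every alternative. With cyclic loess they were -0.01 for miR-466f-3p, 0.07 for miR-467f and 0.31 for miR-466i. The fold changes of miR-466f-3p were 0.49 without normalization, 0.63 by median scaling and 0.46 by 75th percentile scaling, so that the sign turned. Those of miR-467f were 0.57, 0.71 and 0.54 and those of miR-466i 0.78, 0.93 and 0.75 in the same order. For all 3 the Tff2-KO mice spread more widely than the WT mice, with standard deviations of log2 intensity of 0.86, 0.70 and 0.74 in Tff2-KO mice and 0.46, 0.36 and 0.52 in WT mice for miR-466f-3p, miR-467f and miR-466i. Their deviations followed each other closely from mouse to mouse, with r between 0.95 and 0.97 over the 12 arrays and between 0.93 and 0.95 without normalization. Of these, miR-466i and miR-467f are the ACACAC sequences shown above that match at 16 of 19 bases, although they lie on different chromosomes. The third ACACAC sequence, miR-467g, matches miR-467f at 17 of 20 bases and miR-466i at 15 of 20. Its r was only 0.48 with miR-467f and 0.32 with miR-466i. Across the 48 members the entry with the highest such correlation was itself a member in 14 cases (29.2%), while the other members make up 6.63% of the entries.

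In miR-467, miR-467a was at 68.7 to 108 (median 94.3) in Tff2-KO mice and at 29.5 to 86.8 (median 63.7) in WT mice, with the 3 brightest WT mice inside the Tff2-KO range. Its log2 fold change was 0.65 (standard error 0.28, limma adjusted p = 0.507, AUC 0.111). miR-467d was at 131 to 231 (median 187) in Tff2-KO mice and at 134 to 304 (median 232) in WT mice, and the fold change was -0.29 on the log2 scale (standard error 0.26, limma adjusted p = 0.709). miR-467c was at 61.3 to 162 (median 124) in Tff2-KO mice and at 59.7 to 164 (median 150) in WT mice, with almost the same range in both genotypes and a log2 fold change of -0.18 (limma adjusted p = 0.850). The remaining measured members, miR-467f, g and h, had log2 fold changes from 0.03 to 0.11. miR-467b, reported to target lipoprotein lipase in mouse macrophages, was measured on only part of the arrays, and its raw intensities spanned -12 to 76 in Tff2-KO mice and 20 to 72 in WT mice. Its log2 fold change of -0.56 rested on Tff2-KO replicate 2, which was at the floor, and was 0.38 without that mouse (limma adjusted p = 0.857 and 0.836).

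In miR-297, the 2 arms of the miR-297b hairpin had fold changes of opposite sign, and the difference between the arms was not tested. miR-297b-3p was at 45.7 to 109 (median 80.4) in Tff2-KO mice and at 68.0 to 164 (median 123) in WT mice, so that the genotypes overlapped over much of their ranges. The fold change was -0.66 on the log2 scale (standard error 0.29, limma adjusted p = 0.507, AUC 0.875), against 0.11 (standard error 0.37, limma adjusted p = 0.927) for miR-297b-5p. The latter was measured on only 3 Tff2-KO and 4 WT arrays. miR-297a was at 130 to 209 (median 154) in Tff2-KO mice and at 75.3 to 201 (median 124) in WT mice, with much overlap, and its fold change was 0.34 on the log2 scale (standard error 0.25, limma adjusted p = 0.627). miR-297c was at 53.0 to 107 (median 67.7) in Tff2-KO mice and at 1, the floor set for the values, to 108 (median 82.3) in WT mice. Its log2 fold change of 0.86 (standard error 0.99, limma adjusted p = 0.794) came from WT replicate 5, whose raw intensity was 0, and was -0.19 without that mouse.

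Values above and below 0 both occurred along the cluster, partly in short runs. The 35 members found only inside Sfmbt2 had a median log2 fold change of 0.13, with 22 above and 13 below 0. They held all 7 members with an unadjusted p under 0.05, which is 20% of them, against 9.44% of all entries. The members found elsewhere are too few for a contrast of such counts. The 7 members found only elsewhere had a median of 0.11, with 6 above and 1 below 0. The 4 with copies in both places had a median of 0.29. Counted along the 72 hairpin genes inside Sfmbt2, hairpins 3, 4 and 5 were miR-669f at -0.11 (0.10 without normalization), miR-669e at 0.41 and miR-669b at 0.37. Hairpin 58, miR-669c at 0.66, lay between miR-297c (57) and miR-297b (60). Hairpin 8, miR-669l, was at 0.47. Hairpins 13, 16, 20 and 21, all below 0, were miR-467c at -0.18, miR-669k at -0.67, miR-669g at -0.61 and miR-669j at -0.91. Hairpin 23, miR-466e, had both arms above 0. Hairpins 65, 66 and 67 were miR-669o at 0.23, miR-466g at 0.22 and miR-466h at 0.14. Hairpins 69, 71 and 72, all below 0, were miR-466l at -0.03, miR-669i at -0.49 and miR-669h. The members of the lower block, miR-669k (16), miR-669j (21), miR-669i (71) and miR-669h (72), thus stood at 2 distant places of the cluster. The 6 star entries of these numbers, not counted as members, had 4 values above and 2 below 0, with a median of 0.18 and 0 at an unadjusted p under 0.05.

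More members had a fold change above 0 in males than in females. In males (3 mice per genotype) 31 of 48 members were above 0 with a median log2 fold change of 0.25, and in females 21 of 48 with a median of -0.03. Over all 710 entries 325 were above 0 in males and 340 in females, with medians of -0.08 and -0.02. The direction was the same in both sexes for 26 members (54.2%), against 51.5% of all entries. Across the members the male and female fold changes had an r of -0.06 and a rho of 0.01, as a description over entries that share arrays. The difference between the sexes was tested as the genotype by sex term in limma. At an adjusted p under 0.05 it gave 0 members, against 0.141% of all entries, and at an unadjusted p under 0.05 3 members, against 10% of all entries. These were miR-669d with a log2 fold change of 0.88 in males and -0.17 in females (difference -1.06, standard error 0.35, limma adjusted p = 0.45), miR-297a with 0.87 and -0.18 (limma adjusted p = 0.45) and miR-466j with 0.58 and -0.31 (limma adjusted p = 0.45). miR-669d was at 123 to 218 (median 145) in Tff2-KO mice and at 78.5 to 164 (median 120) in WT mice. miR-466j was at 258 to 584 (median 343) in Tff2-KO mice and at 261 to 438 (median 330) in WT mice. For miR-466j the genotypes overlapped over most of their ranges, and for miR-669d the values from 123 to 164 were shared. The lower members had the same sign in both sexes, with -1.15 in males and -0.66 in females for miR-669j, -1.28 and -0.25 for miR-669h-3p, and -1.17 and -0.17 for miR-669k.

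**Figure D5:**
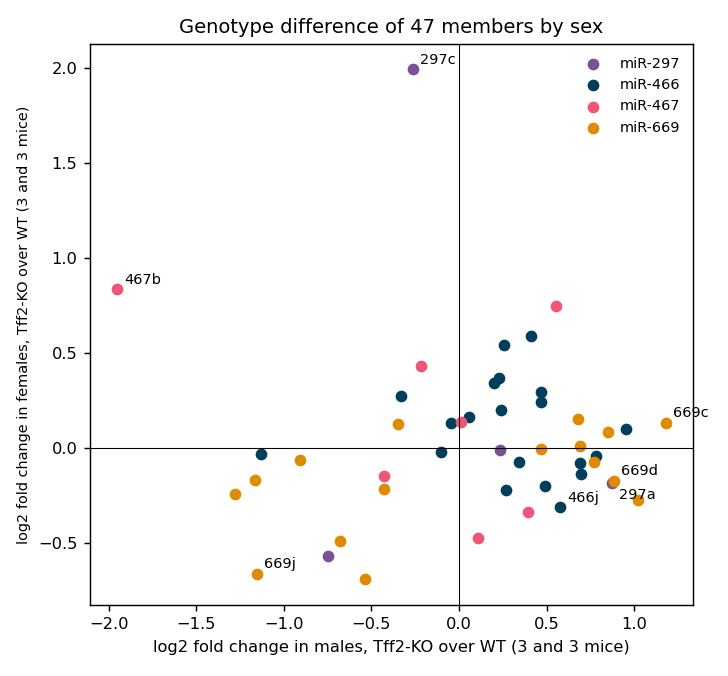
Log2 fold change, Tff2-KO against WT, in males (horizontal axis) and in females (vertical axis) for 47 members, coloured by number, with 3 mice per genotype and sex. Points spread along the horizontal axis and r over the 48 members was -0.06; miR-297c and miR-467b, each with a mouse at the floor of the values, lie farthest out.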

How the data were processed

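RNA from pelleted blood cells of 12 mice was hybridised by the authors to Geniom biochips with the entries of a mouse miRBase release, 1 array per mouse. The deposited raw table holds the intensity of each entry, background-subtracted by the authors and summarised as the median of 7 spots. A second deposited table holds the same intensity values after quantile normalization by the authors, and was used as an alternative. Which arrays entered their normalization is not given in the sources used here.

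The raw values of the 12 arrays were quantile normalized together in limma 3.58.1 (R 4.3.3), values below 1 (4.30% of values) were set to 1, and log2 was taken. All 710 entries were tested with lmFit and eBayes, two-sided, with Benjamini-Hochberg adjustment, and the script was tested on simulated data. p-values measure the spread between mice. The number of arrays limits the precision. Relations with array brightness used 100000 permutations and were computed for all 48 members after values had been seen. Plots were made in matplotlib 3.10.9 (Python 3.11.15).

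Members and lists were chosen with earlier results of these data known. Named in full were the 3 members of each number with the smallest p, measured on at least 4 arrays of each genotype, the 3 brightest members, the entries of the study's list and the 3 with the smallest p for the sex difference. miR-669a, miR-669i, miR-466k and others named outside this rule were chosen after their values were seen. Alternatives were the authors' table, no normalization, median or 75th percentile scaling, cyclic loess, normexp (offset 50), a pseudocount (16), the 355 brighter entries alone, sex as covariate, a replicate block, each sex alone, each mouse left out and the methods' t-test. Mature sequences and hairpin names are from RefSeq (GRCm38.p6).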

Additional observations from a re-analysis of the deposited data

Results flagged for a closer look

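Among 44 groups of 6 mice (18 named members and 4 number medians in each genotype), 2 held a value far from the others, where chance gives about 1 in 20, or 2.2. miR-466e-5p in WT replicate 5 was at 84.5, with the other 5 WT mice between 49.7 and 59.7. miR-467c in WT replicate 3 was at 59.7, below the other WT mice. Without WT replicate 5 the log2 fold change of miR-466e-5p was 0.61, and without WT replicate 3 that of miR-467c was -0.41.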

How the results depend on the processing

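No member reached an adjusted p under 0.05 in limma under any alternative, nor did a genotype by sex difference of a member. At an unadjusted p under 0.05 there were 7 members for genotype and 3 for the sex difference, against 9.44% and 10% of all entries. The number of members higher in Tff2-KO mice at an unadjusted p under 0.05, 3 as reported, was 0 without normalization, 7 with median scaling, 5 in males only and 0 in females only, where it was 10, 50, 53 and 14 over all 710 entries against 27 as reported, and 0 to 7 with 1 mouse left out. The number lower, 4 as reported, was 1 with median scaling and 0 in females only (33 and 19 over all entries, against 40), and 1 to 6 with 1 mouse left out. With the replicate number as a block they were 0 and 2 (16 and 34 over all entries). Nothing in the sources used here says that the numbers pair the mice. Same-numbered arrays showed no strong shared deviation, with correlations of -0.17 to 0.11. Of the Tff2-KO arrays 0 of 6 were closest to the WT array of their number. Such values cannot show whether mice were paired. Members with a sex difference at an unadjusted p under 0.05 numbered 7 without normalization and 7 with normexp, and 1 to 6 with 1 mouse left out. The counts over all entries under these alternatives are not given here, so these numbers cannot be set against a background. Members above 0 numbered 21 in females only and 29 to 34 with 1 mouse left out. The median of miR-297 was -0.16 among brighter entries; with 1 mouse left out the medians were -0.00 to 0.32 for miR-297, 0.15 to 0.31 for miR-466, -0.05 to 0.21 for miR-467 and -0.02 to 0.14 for miR-669.

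Signs turned in females only for miR-297a (-0.19), miR-466j (-0.32) and miR-669d (-0.18), and in males only for miR-297c (-0.25), miR-467c (0.11) and miR-467f (-0.013). That of miR-466f-3p turned to 0.49 without normalization, to 0.63 by median scaling and to 0.46 by 75th percentile scaling. With 1 mouse left out, miR-297c ranged from -0.19 to 1.16, miR-466f-3p from -0.33 to 0.12, miR-466j from -0.0039 to 0.24 and miR-467f from -0.12 to 0.23. The cause was not tested. With 75th percentile scaling the median of all entries was -0.12, and relative to it the medians were 0.12, 0.36, 0.08 and 0.20 for miR-297, miR-466, miR-467 and miR-669. Dim members such as miR-467b and miR-297c are limited by their distance from background.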
